A study of Mus musculus with 26 samples.

Results

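The mouse embryonic and adult globin genes were followed across 18 libraries of sorted microglia and 8 libraries of cortical nuclei from a study of maternal immune activation (MIA). The 7 members were taken by symbol: the adult alpha-like genes Hba-a1 and Hba-a2, the adult beta-like genes Hbb-bs and Hbb-bt, and the embryonic genes Hbb-y, Hba-x and Hbb-bh1. They are 7 of 31053 genes listed for the sorted libraries and 7 of 30406 genes shared by the gene lists of all nuclei libraries. They were selected on measured values in the nuclei: the rule read Hbb-y and Hba-x as higher after MIA than after saline, and the adult genes as not higher. The contrast of MIA with saline in the nuclei is therefore described here and not tested. It differed by labelled genotype: adult globins were higher after MIA in the Csf1r-null label, and Hbb-y overlapped between treatments in the wild type.

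Dams of the C57Bl/6N strain were injected intraperitoneally at E12.5 with saline or with Poly(I:C), a double-stranded RNA made to imitate a viral infection. The sorted cells were wild type and were selected for Cd11b, Cx3cr1 and Cd45 from somatosensory (S1) cortex, with 3 saline and 3 MIA libraries labelled E13, 3 and 3 labelled E15, and 4 saline and 2 MIA libraries labelled P14. Most of them pooled both sexes, and the third P14 saline replicate was a female and a male library. The nuclei came from flash-frozen prospective S1 cortex of male embryos labelled E15, with 2 libraries in each of the 4 groups made by genotype (wild type, Csf1r-null) and treatment (saline, MIA). Csf1r-null animals lack the receptor that microglia need to develop and survive, in every tissue and from the start of life, so the loss is not limited to the brain. P-values here measure the spread between libraries. The labels do not say which libraries shared a dam. The study took its nuclei from 4 dams in all, with wild-type littermates as controls, so nuclei libraries shared dams. The main genotype tests do not account for this.

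Hemoglobin is a tetramer of 2 alpha-like and 2 beta-like chains that carries oxygen in red blood cells. Primitive red cells, which arise in the yolk sac and circulate as nucleated cells in the midgestation embryo, make the embryonic chains: zeta from Hba-x, epsilon-y from Hbb-y and beta-h1 from Hbb-bh1. Definitive red cells from the fetal liver and later the bone marrow make the adult chains and lose their nuclei, and neither microglia nor neurons are known as a main site of globin synthesis.

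The alpha-like genes lie on chromosome 11 of GRCm38 (mm10), in the order Hba-x (32276400 to 32278116), Hba-a1 (32283511 to 32284465) and Hba-a2 (32296489 to 32297298), all on the plus strand. The beta-like genes lie on the minus strand of chromosome 7, with Hbb-y at 103851749 to 103853216, Hbb-bh1 at 103841637 to 103843164, Hbb-bs at 103826534 to 103828096 and Hbb-bt at 103812524 to 103813996. Each has 3 exons, with a coding length of 429 bases in the alpha-like and 444 bases in the beta-like genes. The coding sequences of Hba-a1 and Hba-a2 differed by 1 base (99.8% identical), as did those of Hbb-bs and Hbb-bt (99.8%). For reads in coding sequence, the split of counts between the genes of each pair is therefore uncertain. The UTRs, which 3′ libraries also read, were not compared. The embryonic genes stood apart from their adult neighbours in coding sequence, with 65.5% identity between Hba-x and Hba-a1 and 75.2% between Hbb-y and Hbb-bs. Their coding reads are not subject to the doubt about the split.

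Promoters are shown to set embryonic and adult members side by side. RefSeq (GRCm38.p6) gave a promoter for 6 of the 7 members, and the 150 bases before each RefSeq start were searched on both strands for the erythroid CACCC box, for the CCAAT box, and for a TATA box written either as ATATAA or, in its other searched form, as ATAAAA. No capitalised match overlaps another. For Hbb-y and Hbb-bs of the beta locus and Hba-a2 of the alpha locus, the part of the window outside any annotated UTR follows, 5′ to 3′ on the gene's strand, in lower case with forward matches in capitals. It lies at chr7:103853217-103853357 (minus strand) for Hbb-y, at chr7:103827929-103828011 (minus strand) for Hbb-bs and at chr11:32296342-32296488 (plus strand) for Hba-a2.
Hbb-y: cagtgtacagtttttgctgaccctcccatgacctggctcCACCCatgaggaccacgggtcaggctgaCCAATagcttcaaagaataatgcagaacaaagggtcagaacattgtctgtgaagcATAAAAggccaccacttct
Hbb-bs: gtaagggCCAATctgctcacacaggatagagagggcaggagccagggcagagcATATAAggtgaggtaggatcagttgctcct
Hba-a2: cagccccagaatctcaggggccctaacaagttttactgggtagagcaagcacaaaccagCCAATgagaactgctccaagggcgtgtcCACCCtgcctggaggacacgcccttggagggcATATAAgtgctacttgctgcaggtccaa

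CACCC stood in all 6 globin windows and in 37.4% of 32851 promoter windows of that length, and CCAAT in 5 of 6 against 24.5%, Hba-x being without it. The CACCC of Hbb-bs stood 90 bases before the start, outside the stretch printed. The windows of Hba-x and Hba-a1 lay wholly inside annotated UTRs and were not printed. ATATAA stood in 5 of 6 windows against 5.35% of all, and Hbb-y had ATAAAA (10.1% of all) in its place. The promoter tables of Hba-a1 and Hba-a2 were the same in 297 of 297 bases compared, with an offset of 3 bases.

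Kept barcodes numbered 279 to 6050 per sorted library, with 6125708 to 98181654 UMIs (unique molecular identifiers, 1 per captured RNA molecule), and 4386 to 5891 per nuclei library, with 9271457 to 16478948 UMIs. The E13 MIA replicates 1 and 2 were the smallest, with 279 and 374 barcodes. The sorted libraries carried the label's cell type: 10 microglia markers summed to 18654 to 61548 CPM in them (UMIs scaled to a common library total), against 4.42 to 34.8 CPM in the nuclei. Cell barcodes were shared more often than between other libraries within 2 sets of sorted libraries, 10 libraries in all: 21 pairs shared 32 to 254 barcodes, whereas no other pair of the 325 shared more than 21. The first set held E13 MIA replicate 2, E13 saline replicate 2, E15 MIA replicate 3, E15 saline replicate 3 and both P14 saline replicate 3 libraries, and the second held replicate 1 of E13 saline, E13 MIA, P14 saline and P14 MIA. In E13 MIA replicates 2 and 1, 69.3% and 47.7% of kept barcodes were shared, so sorted results are also given without shared barcodes where these moved them most. Among the nuclei, replicate 2 of the group labelled wild-type MIA held 4.86 CPM of microglia markers and no Csf1r UMI, the other wild-type libraries having 19.1 to 34.8 CPM. Replicate 2 of the group labelled Csf1r-null saline held 20.3 CPM and 10 UMIs of Csf1r, the other Csf1r-null libraries having 4.42 to 7.12 CPM. These values go against both labels (Csf1r alone checks little, since a 3′ tag can lie outside a deletion). Genotype tests after saline, the embryonic to adult ratio and the treatment difference in embryonic share are also given without these 2 libraries. Other nuclei values mostly rest on every library.

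Adult globins were found in every library, at levels that differed widely between libraries of the same group. In sorted E13 cells the 4 adult genes together reached 1818, 3356 and 54.6 CPM in saline replicates 1 to 3 and 24.8, 6078 and 688 CPM in MIA replicates 1 to 3. In sorted E15 cells they reached 734, 4841 and 1338 CPM after saline and 173, 5547 and 1244 CPM after MIA. At P14 they reached 409.8 and 23.1 CPM in saline replicates 1 and 2, 1789 CPM in the female and 316 CPM in the male library of saline replicate 3, and 97.0 and 3.98 CPM in MIA replicates 1 and 2. The group means were 1743 ± 1652 and 2264 ± 3320 CPM (SD, n = 3 each) for E13 saline and MIA, and the ranges of the treatments overlapped at all 3 ages. The highest library (E13 MIA replicate 2) stood 1526-fold above the lowest (P14 MIA replicate 2). Its level rests on shared barcodes: without them it keeps 209 of its 37230 adult UMIs. The male P14 library likewise keeps 662 of 8960.

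The 4 adult genes rose and fell with each other across these libraries. Hbb-bs, the main adult beta-like gene of this table, ranged from 2.14 to 2314 CPM in the sorted libraries, with a median of 329 CPM. Hbb-bt, its near-identical neighbour, ranged from 0.356 to 1212 CPM, Hba-a1 from 1.10 to 1385 CPM and Hba-a2 from 0.388 to 1167 CPM. The balance of the chains moved little beside these ranges: alpha-like genes held 33.0% to 52.9% of all globin UMIs, with a median of 39.4% over the 18 libraries.

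Embryonic globins were rarer and were spread unevenly. Hbb-y, Hba-x and Hbb-bh1 together gave 1432, 16 and 104 UMIs in E13 saline replicates 1 to 3 (68.1, 0.474 and 2.20 CPM). They gave 13, 363 and 384 UMIs in the E13 MIA replicates (1.85, 59.3 and 3.91 CPM). In E15 saline replicates 1 to 3 they gave 2033, 2 and 93 UMIs (27.8, 0.0589 and 2.30 CPM), and in E15 MIA 73, 4 and 157 UMIs (1.35, 0.111 and 9.60 CPM). Saline and MIA overlapped at both ages. Hbb-y made up most of these UMIs, with up to 1352 in a library (E15 saline replicate 1), where Hba-x had 626 and Hbb-bh1 had 55. Hbb-bh1, whose product belongs to the earliest primitive red cells, had no UMI in 9 of the 18 sorted libraries.

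**Figure D1:**
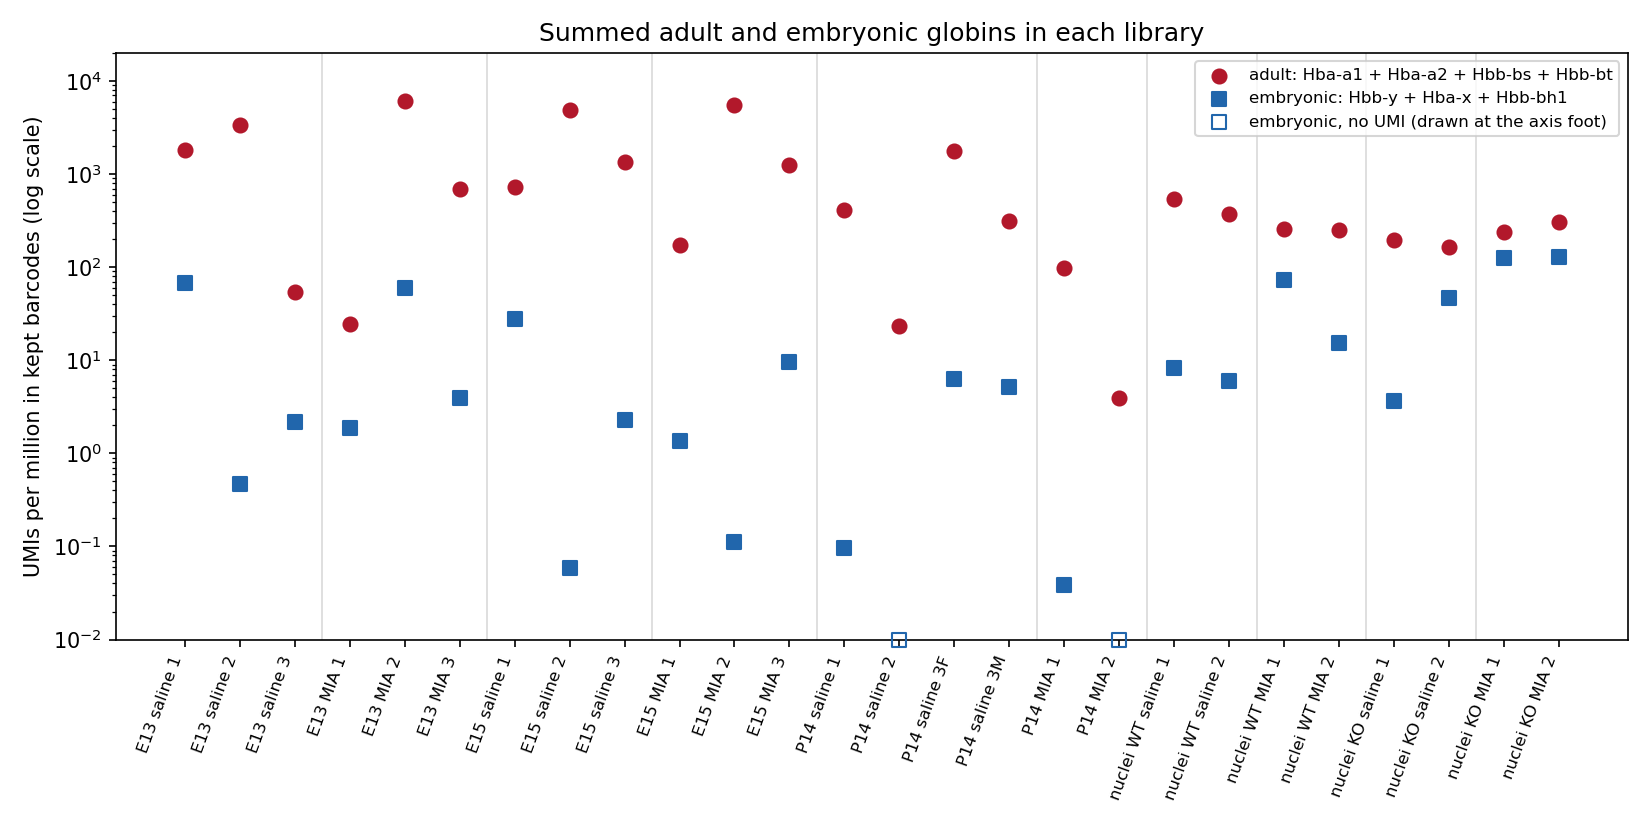
Summed adult globins (red circles) and summed embryonic globins (blue squares) in CPM of kept barcodes, on a log scale, for each of the 26 libraries, 1 point per library. Open squares at the axis foot are libraries without an embryonic globin UMI. Adult levels in the sorted libraries spread from 3.98 to 6078, those of the nuclei from 165 to 535, and embryonic levels come closest to adult ones in the nuclei libraries labelled Csf1r-null MIA.

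At P14 the embryonic UMIs of most libraries could be counted singly. Saline replicates 1 and 2 had 2 and 0 embryonic UMIs, MIA replicates 1 and 2 had 1 and 0, while the female and the male library of saline replicate 3 had 153 and 146. A count of 0 allows up to 0.121 CPM in saline replicate 2 and 0.0971 CPM in MIA replicate 2, counting error alone. All 153 and all 146 UMIs of saline replicate 3 lay in barcodes shared within the first linked set, as did all 157 of E15 MIA replicate 3, 92 of the 93 of E15 saline replicate 3 and 359 of the 363 of E13 MIA replicate 2. Without shared barcodes each P14 library had 0 or 1 embryonic UMI.

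Most of them came from the same barcode. It held 245 Hbb-y UMIs in E13 MIA replicate 2, 87 in E15 saline replicate 3, 129 in E15 MIA replicate 3, and 131 each in the female and the male P14 library. It also carried 489 microglia-marker and 334 border macrophage-marker UMIs in E13 MIA replicate 2, and 88 to 164 and 46 to 107 in the others. Another barcode, made of adult globins, was present in the same 5 libraries, with 83.0% of its UMIs from globins in E13 MIA replicate 2 and 79.4% to 79.6% in the others. E13 MIA replicate 2 held the most UMIs of both barcodes. How the shared barcodes arose was not tested.

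**Figure D2:**
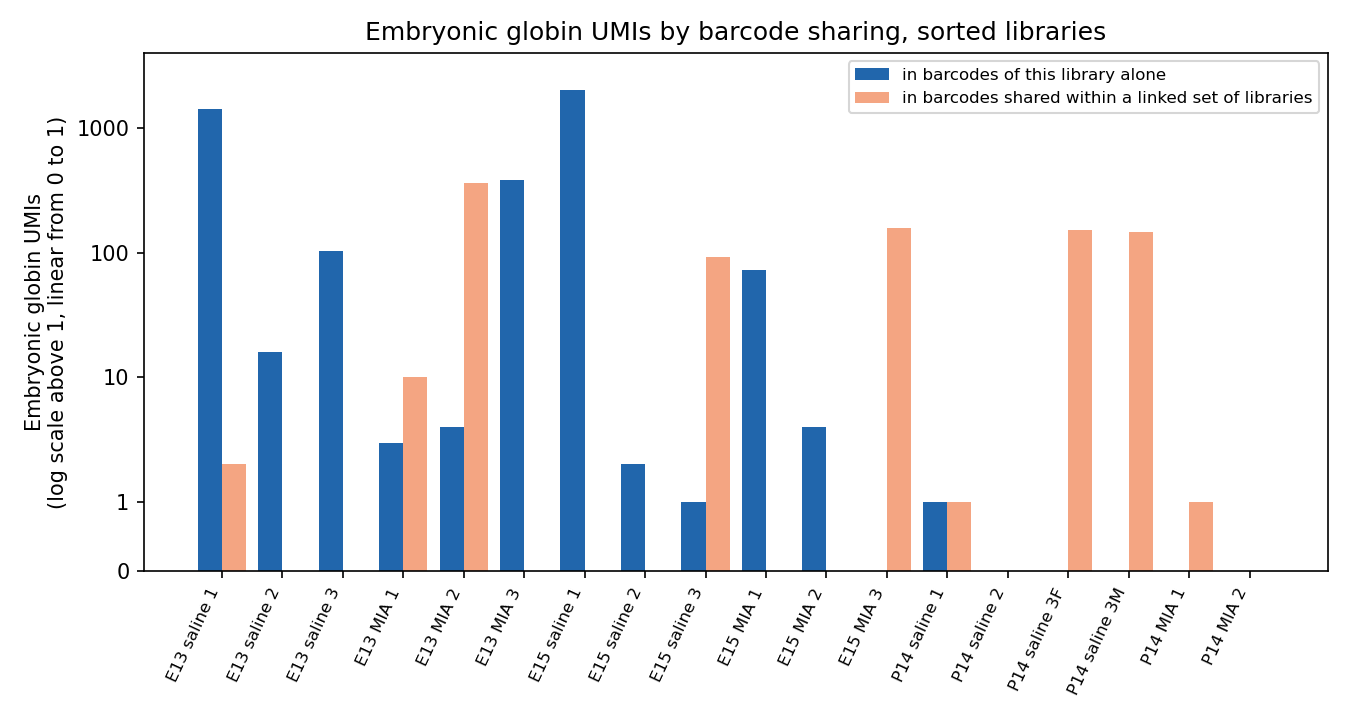
Embryonic globin UMIs (y axis, log scale above 1 and linear from 0 to 1) in each sorted library, split into barcodes of that library alone (blue) and barcodes shared within a linked set (orange). The embryonic UMIs of E15 MIA replicate 3 and of both P14 saline replicate 3 libraries stand wholly in the orange bars (157, 153 and 146 UMIs).

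In most sorted libraries the globin UMIs sat in a few of the kept barcodes, and adult and embryonic globins mostly sat in different ones. A barcode was called globin-rich where the 7 globins gave at least 10% of its UMIs. There were 51 globin-rich barcodes among 65261 (0.0781%), between 0 and 8 in a library, with a median of 68.5% of UMIs from globins and 17 of them above 80%. Of these 51 entries, 5 are the same shared barcode counted in linked libraries. The globin-rich barcodes carried all 4 adult genes, and 49 of the 51 had no embryonic UMI at all, the highest count being 3. In E13 saline replicate 2, 3 of them held 99.5% of the adult globin UMIs, and in E13 MIA replicate 2 a single one held 98.4%. E13 MIA replicate 1, P14 saline replicate 2 and P14 MIA replicate 2 had no globin-rich barcode, and in E13 saline replicate 3 such barcodes held 25.4% of the globin UMIs. Microglia-marker UMIs in globin-rich barcodes ranged from 0 to 789 with a median of 17, and UMIs of 9 erythroid markers without globins from 0 to 94 with a median of 11.

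Among the kept barcodes, embryonic globins sat instead in ones that were mostly other RNA. Only 22 barcodes had 5 or more embryonic UMIs, and these held 92.1% of all 4976 embryonic UMIs of the sorted libraries. None of the 22 was globin-rich: globins gave 0.0134% to 5.71% of their UMIs. They had a median of 194.5 microglia-marker UMIs, between 15 and 788, and a median of 0 erythroid-marker UMIs, with a maximum of 9. Of the 22 entries, 8 are the same 2 barcodes counted again in linked libraries. The 14 unshared ones held 3685 embryonic UMIs and had a median of 308.5 microglia-marker UMIs. The leading barcode of E15 saline replicate 1 alone held 1924 embryonic UMIs, 94.6% of that library's, with 1292 from Hbb-y, 584 from Hba-x and 48 from Hbb-bh1. It had 15 microglia-marker UMIs and 150 of pericyte and endothelial markers. In E13 saline replicate 1 the leading barcode held 1113 embryonic UMIs (77.7%) beside 545 microglia-marker UMIs. In most of these barcodes Hba-a1 and Hba-a2 outnumbered Hbb-bs and Hbb-bt: the leading E13 saline barcode had 698 UMIs of the adult alpha-like and 247 of the adult beta-like genes. The largest globin-rich barcode of the same library had the reverse, 14278 and 20348.

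**Figure D3:**
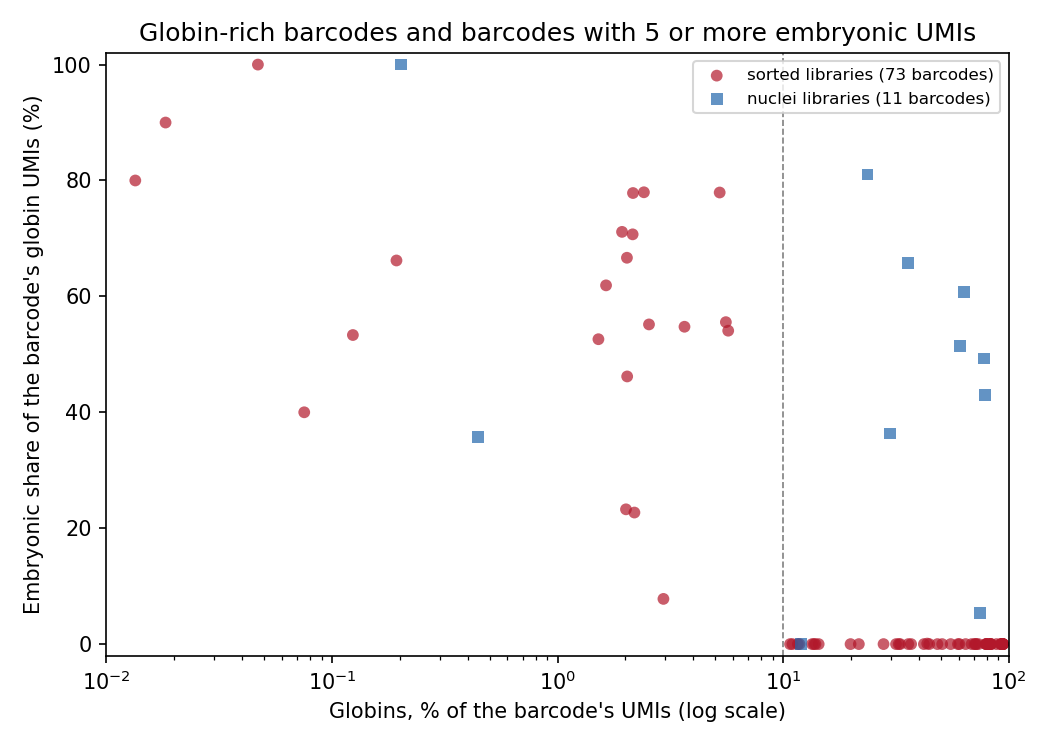
Each point is a barcode that was globin-rich or had 5 or more embryonic globin UMIs (73 in the sorted libraries, red circles, and 11 in the nuclei, blue squares). The x axis is the percentage of its UMIs from the 7 globins (log scale), the y axis the embryonic share of its globin UMIs, and the dashed line marks 10%. Sorted globin-rich barcodes lie along the floor at or near 0% embryonic, while 8 of the 9 globin-rich nuclei lie above it. Sorted barcodes entered from 500 genes and nuclei from 200, and the globin-rich nuclei had a median of 296 genes.

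The barcode filter itself decided much of the adult level. The deposited sorted tables held 5509 barcodes with fewer than 500 genes or more than 20% mitochondrial UMIs, and 127 of these were globin-rich. The barcodes left out held 0% to 99.7% of a library's globin UMIs. They also held 477 embryonic UMIs, 386 of them in E13 saline replicate 1, beside 279 adult UMIs there. Nuclei entered from 200 genes, so sorted barcodes and nuclei were filtered differently. The part of this filter in the embryonic share of globin-rich barcodes was not tested. In E13 saline replicate 3, the library with the lowest kept adult level of its group, 338360 adult globin UMIs lay in barcodes left out and 2581 in those kept. With all deposited barcodes counted its adult level was 6680 CPM, against 54.6 CPM with the filter.

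The first question was whether MIA moved globins in the sorted cells. It was asked with edgeR's quasi-likelihood test on UMIs summed per library, with p-values adjusted over all genes tested (Benjamini-Hochberg). At E13, 0 of 6 globins tested passed, as did 0 of 12958 genes overall (0% called, with 94 genes at an unadjusted p under 0.05 and 2 genes called by DESeq2, neither a globin). The log2 fold changes of MIA over saline lay between 0.20 and 0.36 for the 4 adult genes, each with a standard error of 1.41 to 1.51, and were -0.22 ± 1.55 for Hbb-y and -0.73 ± 1.51 for Hba-x, with adjusted p from edgeR near 1 for all (0.999835). With the replicate block Hbb-y was at 1.12, so its sign did not hold, and without shared barcodes the median of the 4 adult genes was -1.88, so neither did theirs. Hbb-y and Hba-x were then at -2.42 and -2.84. Hbb-bh1 did not pass the filter on low counts in any comparison as reported, and where it reached it in an alternative it did so through the libraries in which it was high, so no call on it is read.

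At E15, 0 of 6 globins and 0 of 13957 genes passed (0% called, 52 at an unadjusted p under 0.05, and 0 by DESeq2). The adult genes lay between -0.02 and 0.14 on the log2 scale, against standard errors of 1.09 to 1.30. Hbb-y was at -1.20 ± 1.81 and Hba-x at -3.00 ± 1.84 (edgeR unadjusted p = 0.529 and 0.147). Without E15 saline replicate 1, which holds the barcode with 1924 embryonic UMIs, the signs turned, to 1.55 for Hbb-y and 2.24 for Hba-x. Without shared barcodes only the 4 adult genes were left to test at E15. The difference between the E15 and the E13 response (interaction) was not called for any of 6 globins, nor for any of 14278 genes (0% called, 42 at an unadjusted p under 0.05, 0 by DESeq2), with -1.14 ± 2.71 for Hbb-y and -2.42 ± 2.71 for Hba-x. The median of the 6 was -0.35, and 1.75 without shared barcodes (smallest edgeR adjusted p = 0.999893).

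At P14 the 4 adult globins had lower values after MIA, and no tested globin passed. The adult genes were at -3.66 ± 1.68 (Hba-a1), -3.63 ± 1.64 (Hba-a2), -3.43 ± 1.70 (Hbb-bs) and -5.17 ± 1.98 (Hbb-bt), and Hbb-y was at -6.86 ± 2.72, each with an edgeR adjusted p of 0.989. Hbb-y passed the filter on low counts through both saline replicate 3 libraries, each with 131 Hbb-y UMIs in the same shared barcode. Its sign is therefore not read. Without shared barcodes 4 globins, all adult, were left to test. The median of the 4 adult genes was -1.18 without globin-rich barcodes, -1.66 with all deposited barcodes, -7.48 without MIA replicate 1 and -2.36 without the female saline library of replicate 3. The unadjusted edgeR p lay between 0.0316 for Hbb-bt and 0.0799 for Hbb-bs. Of 13589 genes, 0 passed (0% called, 420 at an unadjusted p under 0.05, 1 by DESeq2, not a globin). The 9 erythroid markers other than globins summed to 0.162 and 0.350 CPM after MIA and 0.322 to 3.79 CPM after saline, with 4 to 7 of the 9 at 0 in each library. Their part in the globin values was not tested.

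The embryonic to adult balance within a library, which does not depend on scaling, was tested by exact permutation of libraries on log2((embryonic UMIs + 0.5)/(adult UMIs + 0.5)). At E13 it was -4.74, -12.75 and -4.63 in the saline and -3.69, -6.68 and -7.46 in the MIA libraries, a difference of 1.43 for MIA (two-sided exact permutation p = 0.8, smallest possible 0.1). At E15 it was -4.72, -16.00 and -9.18 in saline and -6.98, -15.43 and -7.01 in MIA, a difference of 0.16 (two-sided exact p = 1, smallest possible 0.1). The libraries of the treatments interleaved at both ages. With both ages in a single test, permuted within age, the difference was 0.79 (exact permutation p = 0.77). The ratio depends on the barcode filter: with all deposited barcodes it was -11.57 in E13 saline replicate 3, in place of -4.63, and the differences were 3.39 at E13 (exact permutation p = 0.3), -0.42 at E15 (exact permutation p = 1) and 1.49 with both ages (exact permutation p = 0.52). Without shared barcodes the differences were 2.56 at E13 (exact permutation p = 0.6), -0.39 at E15 (exact permutation p = 0.9) and 1.08 with both ages (exact permutation p = 0.705).

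The second question was whether the globins changed with age in the saline libraries, as circulating red cells pass from primitive to definitive during this window. From E13 to E15 the adult genes differed by 0.05 to 0.52 on the log2 scale, with standard errors of 1.30 to 1.43, Hbb-y by -1.38 ± 1.69 and Hba-x by -0.31 ± 1.53. With edgeR 0 of the 6 globins passed, in a comparison that called 28.4% of all 14182 genes tested, and 0 passed with DESeq2. Without E15 saline replicate 1 Hba-x passed at -5.56 (edgeR adjusted p = 0.0366), and without E13 saline replicate 1 it was at 2.66. Few barcodes held much of the Hba-x in these libraries: 584 UMIs sat in 1 barcode of the former, and 137 and 71 in 2 of the latter. The call is therefore not read as a fall.

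From E15 to P14 every tested globin had a lower value: -2.18 ± 1.28 (Hba-a1), -2.23 ± 1.23 (Hba-a2), -1.77 ± 1.22 (Hbb-bs), -2.52 ± 1.36 (Hbb-bt), -1.62 ± 1.65 (Hbb-y) and -3.92 ± 1.77 (Hba-x). None of the 6 passed, where 53.0% of 14182 genes were called. The closest was Hba-x, with an adjusted p of 0.0819 from edgeR and an unadjusted p of 0.0479. With shared barcodes left out, Hba-x passed at -7.91 (edgeR adjusted p = 0.0266). Hba-x also passed without E15 saline replicate 2 or 3 (edgeR adjusted p = 0.0471 and 0.0461). Without E15 saline replicate 1, by contrast, Hba-x was at 1.30 and Hbb-y at 1.09. A single barcode of that library held 584 of its 626 Hba-x UMIs, so the Hba-x calls are not read as a fall. The median of the 4 adult genes was -0.97 without E15 saline replicate 2, -3.50 without the female library of P14 saline replicate 3 and -0.50 with all deposited barcodes. Hbb-bt passed at -1.94 without globin-rich barcodes (edgeR adjusted p = 0.0494) and at -4.02 without the female library of P14 saline replicate 3 (edgeR adjusted p = 0.0427).

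The embryonic to adult ratio was lower at E15 than at E13 by 3.23 on the log2 scale, permuted within treatment (two-sided exact p = 0.245, smallest possible 0.005). It fell by 2.60 in the saline and by 3.87 in the MIA libraries, values that did not exceed the spread between libraries. Without E15 saline replicate 2 the difference was -1.72 and without E15 MIA replicate 2 it was -1.83. Without shared barcodes it was -6.01 (exact permutation p = 0.055), and with each shared barcode kept only in the library where it had most UMIs it was -5.45 (exact permutation p = 0.065).

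**Figure D4:**
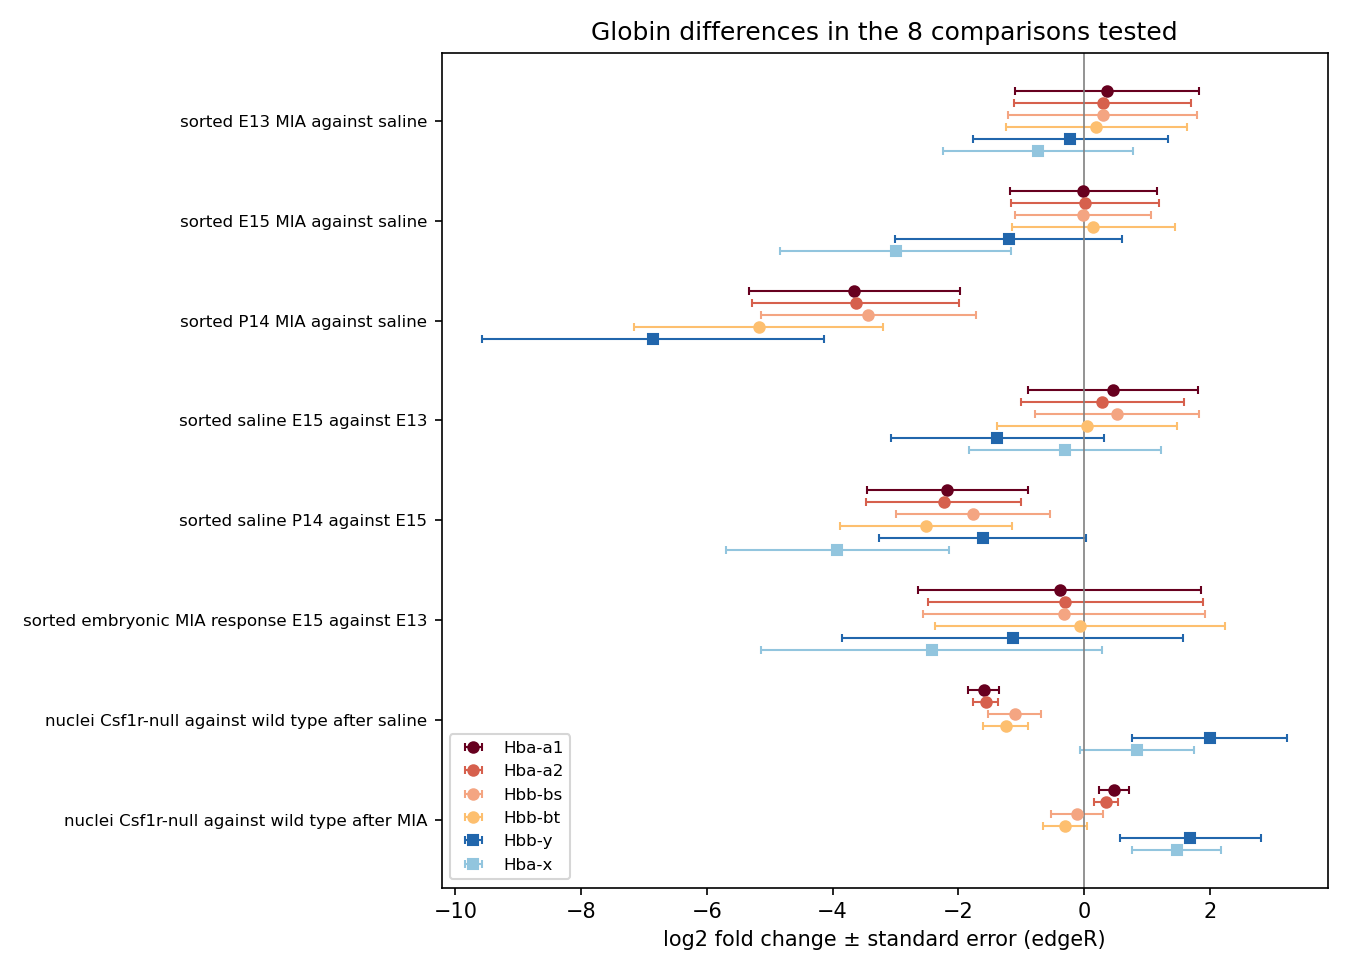
Log2 fold change (x axis) with its standard error from edgeR for the 6 globins past the filter in each of the 8 comparisons tested (Hba-x was not tested at P14). Circles are adult and squares embryonic genes. Standard errors in the sorted comparisons run from 1.09 to 2.72. Hbb-y at P14 (-6.86) lies farthest from 0, a value that rests on barcodes shared between libraries and is not read. In the nuclei after saline the 4 adult genes lie between -1.60 and -1.10 with shorter bars.

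Genes around hemoglobin were read from lists of heme synthesis, erythroid genes, globin switching regulators, heme clearance and other globins. None of their tested members passed in any MIA comparison, at E13, E15 or P14, in the interaction, or between genotypes of nuclei. Between ages they did, in comparisons that called 28.4% of all genes from E13 to E15 and 53.0% from E15 to P14. The counts that follow stand beside these shares, and nothing particular to the lists was tested. Of 8 tested switching regulators, 1 rose and 1 fell from E13 to E15: Bcl11a, a repressor of embryonic-type globin genes in red cells, rose by 1.41 ± 0.16 (edgeR adjusted p = 3.13e-04), and Myb fell by 1.06 (edgeR adjusted p = 0.0111). From E15 to P14, 2 rose and 5 fell. Bcl11a fell by 1.69 and Lin28b, a fetal-stage RNA-binding protein, fell by 3.75 (edgeR adjusted p = 6.48e-06 and 1.25e-05). Bcl11a also serves in neurons, and 6 neuronal markers, none at 0 in any library, summed to 74.6 to 99.9 CPM in the E13, 315 to 442 CPM in the E15 and 15.3 to 40.2 CPM in the P14 saline libraries. The part of neuronal RNA in these values was not tested.

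Of 12 heme synthesis and iron genes, 0 rose and 3 fell from E13 to E15, and 4 rose and 3 fell from E15 to P14, shares near those of all genes (28.4% and 53.0%). Tfrc, the transferrin receptor, fell by 1.46 and then rose by 1.32 (edgeR adjusted p = 0.00323 and 0.0012), and Slc25a37, which brings iron into mitochondria, rose by 1.46 from E15 to P14 (edgeR adjusted p = 1.23e-05). Of 8 tested clearance genes, 1 rose from E13 to E15, the iron exporter Slc40a1 (0.62, edgeR adjusted p = 0.0424). From E15 to P14, 1 rose and 5 fell. Hmox1, which opens the heme ring, was at 347, 396 and 315 CPM in the E15 saline libraries and at 25.6, 26.0, 44.7 and 38.1 CPM at P14, without overlap, and fell by 3.59 ± 0.20 (edgeR adjusted p = 5.71e-07). The ferritin chain Ftl1 fell by 2.31 and Fth1 by 1.44 (edgeR adjusted p = 1.11e-06 and 3.89e-05). Cell type markers also moved from the E15 to the P14 saline libraries, in both directions. The 7 border macrophage markers went from 181 to 318 CPM down to 79.7 to 116 CPM, without overlap. The 5 dividing-cell markers went from 536 to 1606 CPM down to 44.7 to 223 CPM, without overlap. Microglia markers went from 26544 to 32595 CPM up to 52303 to 57946 CPM, without overlap. Intermediate progenitor markers went from 70.7 to 78.7 CPM up to 132 to 179 CPM, also without overlap. The dividing-cell markers were also lower in the E15 than in the E13 saline libraries (1643 to 2098 CPM at E13), without overlap. The part of these markers in the values was not tested. The median log2 fold change of the 8 clearance genes from E15 to P14 was -1.06, and that of the 6 globins tested -2.20. Of 7 tested erythroid genes 2 rose from E13 to E15 (Ermap and Epor), and from E15 to P14 Ermap and Sptb rose (1.47 and 1.21, edgeR adjusted p = 3.47e-04 and 9.30e-04). Of the other globins only Cygb was tested, and it fell by 1.37 from E15 to P14 (edgeR adjusted p = 0.0394).

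In the nuclei the adult globins were the steadier set. Together they reached 535 and 374 CPM in the wild-type saline libraries, 256 and 250.4 CPM in those labelled wild-type MIA, 195 and 165 CPM in those labelled Csf1r-null saline and 237 and 308 CPM in Csf1r-null MIA (replicates 1 and 2). The wild-type saline libraries were highest and the Csf1r-null saline libraries lowest, with 2 libraries in each group. Alpha-like genes held 34.5% to 59.1% of the globin UMIs.

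Embryonic globins in the nuclei are the values the choice of genes rests on. Hbb-y was at 6.31 and 4.63 CPM in wild-type saline, 49.5 and 4.28 CPM in wild-type MIA, 3.04 and 40.6 CPM in Csf1r-null saline, and 87.8 and 78.9 CPM in Csf1r-null MIA (replicates 1 and 2). Hba-x was at 1.91 and 1.43, 22.5 and 10.9, 0.519 and 5.81, and 38.1 and 50.2 CPM in the same order. Hba-x was higher in both MIA libraries of each labelled genotype than in its saline libraries, whereas Hbb-y overlapped between saline and MIA in the wild type. Hbb-bh1 had 0 to 6 UMIs per library.

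Embryonic genes made up 1.53% and 1.60% of globin UMIs in wild-type saline, 22.0% and 5.71% in wild-type MIA, 1.83% and 22.0% in Csf1r-null saline, and 34.7% and 29.6% in Csf1r-null MIA. The difference of the group means, MIA minus saline, was 12.3 percentage points for the libraries labelled wild type and 20.2 for those labelled Csf1r-null. With 1 library left out these ran from 4.15 to 20.5 and from 10.2 to 30.3. Each was highest without the library that goes against its label. Shares of 22.0% to 34.7% thus stood in 4 of the 8 libraries, among them the saline library that goes against its label. Among the 4 saline libraries, replicate 2 of the Csf1r-null label was the one above 1.83%.

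These shares rested on 9 globin-rich barcodes among 41539 nuclei (0.0217%), 0 to 2 in a library, of which 8 had 5 or more embryonic UMIs. In all, 10 nuclei held 90.1% of the 5070 embryonic UMIs. The leading barcode of Csf1r-null MIA replicate 2 had 1227 embryonic UMIs (92.9% of its library), with 740 from Hbb-y and 484 from Hba-x, and that of replicate 1 had 1221 (69.1%). In wild-type MIA replicate 1 the leading barcode had 740 (62.3%), and in replicate 2 labelled Csf1r-null saline it had 355 (83.9%). The globin-rich nuclei had a median of 296 genes and no microglia-marker UMI. Most carried Hba-a1 and Hba-a2 with fewer adult beta-like UMIs: the leading barcode of Csf1r-null MIA replicate 1 had 1602 UMIs of the adult alpha-like genes and 15 of Hbb-bs and Hbb-bt. A difference in the number of such cells and a difference in RNA per cell cannot be told apart in the sums.

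Without the globin-rich barcodes the embryonic share was 0.672% and 1.68% in wild-type saline, 3.13% and 1.73% in wild-type MIA, 1.83% and 4.91% in Csf1r-null saline, and 4.51% and 4.52% in Csf1r-null MIA. MIA minus saline was then 1.25 percentage points in the libraries labelled wild type and 1.15 in those labelled Csf1r-null. The replicate 1 tables also list droplets of 1 to 100 UMIs, which hold RNA outside nuclei. In these the embryonic share was 2.22% after saline and 7.36% after MIA in the wild type, and 2.62% and 9.58% in the Csf1r-null libraries. Adult globins were 3.08 to 6.66 times and embryonic globins 7.98 to 14.9 times as high in these droplets as in the nuclei without globin-rich barcodes, in CPM. Whether RNA outside nuclei accounts for the globin UMIs of the other nuclei was not tested.

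**Figure D5:**
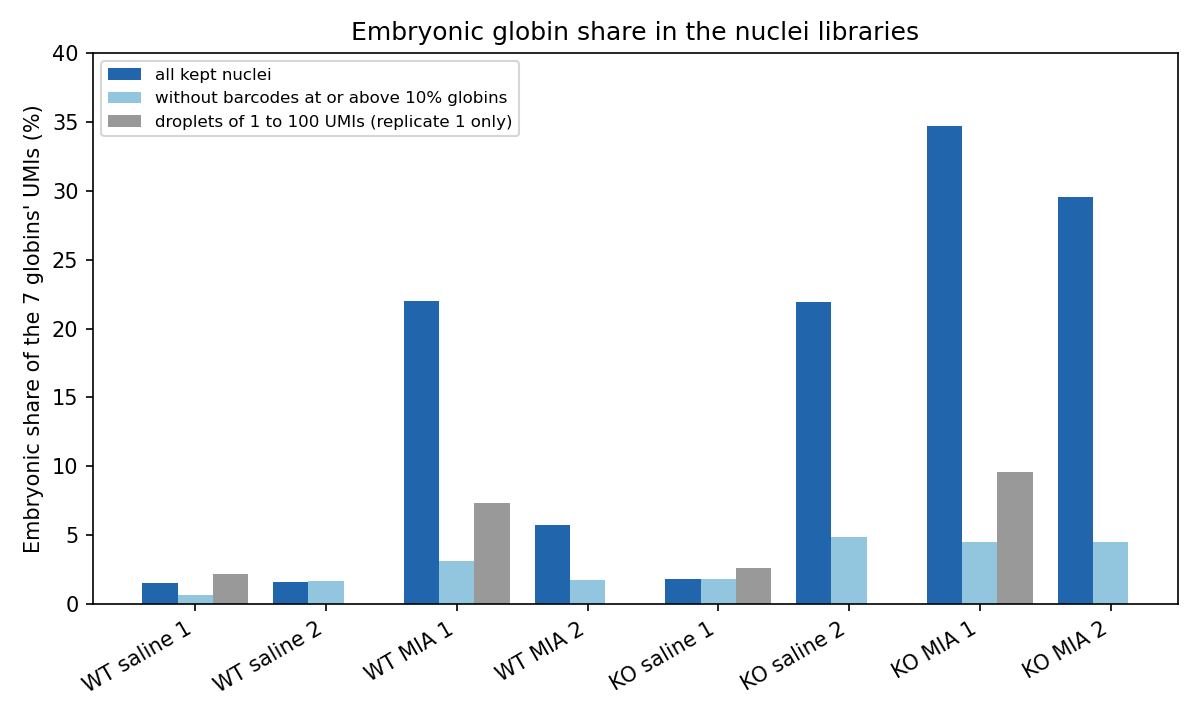
Embryonic share of all globin UMIs (y axis, %) in each nuclei library, labelled by genotype, treatment and replicate, 1 bar per library. Dark bars show all kept nuclei, light bars the same without barcodes at or above 10% globins, and grey bars droplets of 1 to 100 UMIs, which were listed for replicate 1 alone. Dark bars reach 34.7%, whereas no light bar is above 4.91%.

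Genotype was tested in the nuclei because the choice of genes compared MIA with saline and not the genotypes. That choice used values of these same libraries, however, so the genotype tests are not independent of it. After saline, adult globins had lower values in the Csf1r-null than in the wild-type libraries: Hba-a1 was at 47.6 and 36.2 CPM against 161 and 93.1 CPM, and Hba-a2 at 33.4 and 30.8 CPM against 117 and 73.1 CPM. Hbb-bs was at 86.5 and 72.6 CPM against 187 and 152 CPM, and Hbb-bt at 27.6 and 25.2 CPM against 69.0 and 55.5 CPM. None of the 4 overlapped between genotypes, but groups of 2 libraries separate easily, and the share of all genes that did so was not counted. Wild-type saline replicate 1, the highest in adult globins, also stood apart in interneuron markers (902 CPM, none of 8 at 0, against 146 to 214 CPM in the other nuclei libraries) and was highest in apical progenitor markers (1364 CPM against 698 to 1035 CPM). The part of its composition in the globin values was not tested. The log2 fold changes were -1.60 ± 0.24 (Hba-a1), -1.57 ± 0.19 (Hba-a2), -1.10 ± 0.42 (Hbb-bs) and -1.25 ± 0.35 (Hbb-bt), with unadjusted edgeR p of 1.75e-04, 3.93e-05, 0.0296 and 0.00753. Over all genes none of them passed (edgeR adjusted p = 0.565 for Hba-a2 and 0.84 for the others), and 0 of 14386 genes did (0% called, 833 at an unadjusted p under 0.05). The replicate block, DESeq2 and the filter on low counts changed this call. With the replicate number as a block 2 of 14386 genes passed, both of them globins, Hba-a1 and Hba-a2 (edgeR adjusted p = 0.0137 each). This number also marks the software version, gene list and barcode filter of the nuclei libraries, and the main fit leaves it out. With DESeq2 Hba-a1 passed (adjusted p = 8.22e-07, 1 of 5 genes called), and with no filter on low counts 5 of the globins passed, the 4 adult genes as lower and Hbb-y as higher, among 77 genes called of 22131. Without the 2 libraries that go against their labels, which leaves a single Csf1r-null library after saline, the adult genes were at -1.46, -1.56, -1.02 and -1.23, and none passed (edgeR adjusted p = 0.972). Without wild-type saline replicate 1 Hba-a1 was at -1.28 and Hba-a2 at -1.31 (edgeR adjusted p = 0.747).

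Hbb-y and Hba-x did not pass between genotypes. After saline they were at 2.00 ± 1.23 and 0.85 ± 0.91 on the log2 scale (edgeR adjusted p = 0.854 and 0.898), but at -0.91 and -1.73 without replicate 2 labelled Csf1r-null saline, so the sign rested on this library. Without both libraries that go against their labels they were at -0.90 and -1.72. After MIA they were at 1.69 ± 1.13 and 1.47 ± 0.71, and the adult genes lay between -0.30 and 0.48. With 1 library left out Hbb-y after MIA ran from 0.82 (without wild-type MIA replicate 2) to 4.31 (without wild-type MIA replicate 1) and Hba-x from 1.05 to 2.06, both above 0 in every such fit. Without globin-rich barcodes they were at 0.47 and 0.76. None of 6 globins passed after MIA, as for all 14386 genes (0% called by edgeR, 59 at an unadjusted p under 0.05, 0 by DESeq2). The embryonic to adult ratio was higher in the Csf1r-null libraries by 2.02 on the log2 scale, 2.19 after saline and 1.85 after MIA (two-sided exact permutation within treatment, p = 0.0556, which is the smallest this design allows). With libraries of equal replicate number paired, p was 0.125, again the smallest the exact permutation could give. The difference was 1.04 without replicate 2 labelled Csf1r-null saline, 1.25 without globin-rich barcodes, and 1.36 with the alpha-like genes alone (exact permutation p = 0.167). Without the 2 libraries it was higher by 0.49 (exact permutation p = 0.111, the smallest possible).

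Erythroid RNA other than globins was scarce in the nuclei: the 9 markers summed to 1.52 to 3.34 CPM, with 3 to 6 of the 9 at 0, and Alas2, the red cell enzyme that starts heme synthesis, had 6 to 34 UMIs. Alas2 was the gene most like the adult globins across the 12 embryonic sorted libraries (Pearson r = 0.92 and Spearman rho = 0.97 of log2(CPM + 1), a description over libraries that differ in depth), followed by Xcr1, Ino80, Tyw1 and Itgb2 (r = 0.82 to 0.85). The genes most like the embryonic globins there were Tssk4, Mycbpap, Gm37170, Fgr and AI839979 (r = 0.81 to 0.87), none of them an erythroid gene of the lists. Adult and embryonic globins hardly followed each other (r = 0.13). Over the 8 nuclei libraries the closest to the adult globins were Eif2b3, Nptx2, Vstm2l, Ppp1cc and Usp1 (r = 0.96 to 0.98), and to the embryonic globins Vps53, Fam76b, Iqgap2, Dcun1d4 and Tbc1d32 (r = 0.93 to 0.98), the best of 14386 genes over few libraries.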

How the data were processed

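Single-cell libraries (10x Chromium 3′ v3.1) of sorted microglia and of cortical nuclei were used as the authors deposited them, as tables of UMI counts per gene and barcode, made with Cell Ranger against mm10 and not normalized. The labels give version 3.1.0 throughout, whereas the file headers name 3.1.0 for 22 libraries and 6.0.1 for replicate 2 of the nuclei, whose gene list is longer (32285 against 31053 genes). Replicate 1 of the nuclei lists all 6794880 barcodes.

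Barcodes entered for nuclei from 500 UMIs and 200 genes upward, and for sorted cells from 500 genes upward if mitochondrial UMIs did not exceed 20%. Scrublet scores (scanpy 1.11.5) removed the top 0.8% of cells per 1000 cells as doublets, because the tool's own threshold called only 0% to 2.97% per library. All kept barcodes were summed per library, whatever their cell type. Totals ranged from 6125708 to 98181654 UMIs, and intervals or limits from 0 counts cover counting error only.

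Sums were tested with edgeR 4.0.16 (R 4.3.3; TMM, filterByExpr by group, quasi-likelihood test, Benjamini-Hochberg, threshold 0.05), with DESeq2 1.42.0 as an alternative. Standard errors were taken from the fold change and its F statistic. Ratios were tested by exact permutation (Python 3.11.15, numpy 2.4.6). Other settings were RLE scaling, totals without globins, no filter on low counts, no globin-rich barcodes, doublets kept, all sorted barcodes, a replicate block and each library left out. Leaving out shared barcodes, or the 2 nuclei libraries that go against their labels, was added after seeing the data. So was counting all deposited barcodes in the embryonic to adult ratio. The edgeR test was checked on simulated counts with a dispersion (spread between libraries) of 0.05 for every gene. It was not checked at the wider spread of the globins. The permutation code was checked on made-up values.

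The 7 globins and the gene lists were chosen with earlier results of these data known. All 7 globins are named in every comparison. Of the lists, the genes that passed are counted and examples named (1 result of the erythroid list is not reported here), and for likeness the 5 genes of highest correlation are named. Equal replicate numbers paired the libraries of E15 sorted cells (correlation of deviations 0.19 to 0.34 in 3 pairs) but not those of E13 or P14. In the nuclei (0.50 to 0.68) there are only 2 numbers, which also mark the software, gene list and barcode filter. The main tests left the replicate number out in every comparison, also at E15. No genome sequence was used here: positions are from GENCODE vM21 and promoters from RefSeq.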

Additional observations from a re-analysis of the deposited data

Results flagged for a closer look

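Hbb-bh1 in the female P14 saline library of replicate 3 stood apart from the other 3 saline libraries, at 0.0416 CPM against 0 in each. It is 1 UMI, and it lies in a barcode shared with other libraries.

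Summed adult globins in the nuclei had a mean of 454 CPM after saline and 253 CPM after MIA in the wild-type label (MIA minus saline -200.8 CPM), and of 179.9 and 273 CPM in the Csf1r-null label (92.7 CPM), with both libraries of each group on the same side. The difference between the genotypes was not tested, because the choice of genes used the treatment contrast, and 2 of these libraries go against their labels.

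Droplets of 1 to 100 UMIs, which took no part in the comparisons, held a higher embryonic share of globin UMIs in the MIA than in the saline library of replicate 1, at 7.36% against 2.22% in the wild type and 9.58% against 2.62% in the Csf1r-null. They come from libraries whose nuclei the choice of genes used, 1 per group, so they are not separate evidence.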

How the results depend on the processing

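Of the recomputed values that answer a comparison, 217 stayed in the same range or on the same side of the threshold, 14 moved and 10 turned sign. The cause was not tested for any of them.

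Without globin-rich barcodes the embryonic share in nuclei, MIA minus saline, was 1.25 points in the wild-type and 1.15 in the Csf1r-null label, the E15 ratio of MIA to saline was -0.18, Hba-x in Csf1r-null against wild-type nuclei after saline was -1.25, and Hba-a1 and Hba-a2 after MIA were -0.59 and -0.49. Without shared barcodes, or keeping each in 1 library, the E15 ratio was -0.39, and with all deposited barcodes, an alternative chosen after seeing the data, it was -0.42. From E15 to P14 in saline, 1 globin passed with no filter on low counts (Hbb-bh1, high in 1 barcode of E15 saline replicate 1, so not read as a fall), 1 without globin-rich barcodes and 1 under either treatment of shared barcodes. The call on Hba-x without shared barcodes rests on that same barcode and is not read as a fall either. Shared barcodes left 1 or 0 embryonic UMIs in each P14 library. In the nuclei after saline 5 globins passed with no filter, 2 with the replicate block and 1 with DESeq2, out of 77, 2 and 5 genes called. After MIA 1 passed with no filter (Hba-x), of 4 genes called. At E13, 1 gene was called with the replicate block and 2 with DESeq2, at P14 1 with DESeq2, and none was a globin. Without the 2 nuclei libraries that go against their labels Hbb-y and Hba-x after saline were -0.90 and -1.72, and Hbb-bs after MIA was 0.15. With the replicate block Hbb-y at E13 was 1.12, and the block changed no other globin call. With library totals without globins and no TMM the median of all genes from E15 to P14 in saline was 0.22, in place of 0.04.

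With 1 library left out, the ratio of MIA to saline ranged from -1.26 to 2.80 at E13, from -2.86 to 2.97 at E15 and from -0.72 to 2.20 within age, that of E15 to E13 from -4.58 to -1.72, and that of Csf1r-null to wild-type nuclei from 1.04 to 3.00. For MIA at E13, Hbb-y ranged from -2.68 to 4.18 and Hba-x from -3.09 to 2.37, and at E15 Hbb-y from -3.75 to 1.55 and Hba-x from -3.95 to 2.24. From E13 to E15 in saline Hbb-y ranged from -4.09 to 2.99 and Hba-x from -5.56 to 2.66, with 0 to 1 globins passing and 2218 to 6151 genes called in all. From E15 to P14 they ranged from -2.32 to 1.09 and from -4.58 to 1.30, with 0 to 2 passing. The interaction ranged from -5.53 to 1.54 for Hbb-y and from -5.48 to 2.76 for Hba-x. The median of the adult genes ranged from -2.32 to 1.18 for MIA at E13, from -1.70 to 1.28 at E15, from -7.48 to -2.36 at P14, from -3.50 to -0.97 from E15 to P14 in saline, from -0.91 to 1.22 from E13 to E15 and from -2.03 to 2.36 in the interaction. In the nuclei after saline Hbb-y ranged from -0.91 to 2.93 and Hba-x from -1.73 to 1.84, and after MIA Hbb-bs from -1.06 to 0.47 and Hbb-bt from -1.01 to 0.19. The embryonic share ranged from 4.15 to 20.5 points (wild-type label) and from 10.2 to 30.3 (Csf1r-null label). Fits that leave 1 nuclei library in a group assume that it varies like the others.

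The summed UMIs of the embryonic genes had a median of 83 over the 18 sorted libraries, and 9 of these libraries hold no Hbb-bh1 UMI.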
